A study of Homo sapiens with 4 samples.

Results

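The ends of the long arms of chromosomes 4 and 10 were examined for contacts with ribosomal RNA gene clusters (rDNA) in K562, a human erythroleukemia cell line, by circular chromatin conformation capture (4C). The study comprised 2 groups of 2 libraries each: untreated cells, and cells incubated with 50 µM hemin for 108 h. Hemin, an inducer of erythroid differentiation, was the only difference in treatment that the labels and the study's methods state. A contact region, a stretch of the hg38 genome covered by reads joined to the rDNA viewpoint, was taken as a member where its midpoint lay in the last 300 kb of chromosome 4 (chr4:189914556-190214555) or of chromosome 10. Of the 197703 regions of the 4 libraries, 534 were members: 156 and 156 in untreated replicates 1 and 2, and 102 and 120 in hemin replicates 1 and 2. K562 is a single established line, and the identity of the cells was not checked with markers here.

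Both ends carry a tandem array of D4Z4, a repeat unit of which each copy holds a reading frame of DUX4, the gene of a double homeobox transcription factor that is active in the early embryo and silent in most adult cells. Loss of silencing of the chromosome 4 array leads to facioscapulohumeral muscular dystrophy. The array of chromosome 10 is nearly identical but is not known to cause the disease. The comparison addressed here is how far rDNA contacts at these arrays differ between untreated and hemin-treated cells.

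In the build used, the D4Z4 sequence of chromosome 4 began at 190065229 and ended at 190093263, with 8 whole units between sites of KpnI (GGTACC). A further D4Z4 stretch (chr4:190173122-190175273) followed a 50 kb gap of unknown sequence. The chromosome 10 end held 12 whole units, split by another gap into stretches at chr10:133664430-133685161 and chr10:133740609-133761350. The units were 3293 to 3310 bases long, and all were at least 97.9% identical to the first unit of chromosome 4. A stretch of 68-base tandem repeats, of the beta-satellite type, followed the array on both chromosomes. The ends were homologous from 43.1 kb before the chromosome 4 array onward, in blocks of 97.8% to 99.3% identity.

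The first enzyme of the protocol, EcoRI (GAATTC), had 0 sites in the 30187 bases of D4Z4 on chromosome 4 and 0 sites in the 41474 bases on chromosome 10. The second enzyme, FaeI (CATG), had 4 sites in the first unit, at bases 963, 1006, 1031 and 1611 from its KpnI site. The whole ends held 59 and 63 EcoRI sites. The reads of D4Z4 therefore lay at no EcoRI site, whereas 82.9% to 91.7% of the reads of the chromosome 4 end and 62.1% to 75.1% of those of the chromosome 10 end lay within 100 bases of one. Over all regions outside the viewpoint, 76.0% to 78.5% of the reads did.

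The sequences on which the results turned are given from the plus strand of hg38. The first 3 lie inside D4Z4 units, at positions numbered along the unit, and show why reads of this repeat cannot be tied to one copy: each has at least 8 exact copies in the genome. Capitals mark CG, the dinucleotide at which D4Z4 is methylated when silent, which occurred 9.74 times per 100 bases in the first unit and 2.47 and 2.82 times in the chromosome 4 and 10 ends. At least 4 CG were present in 1.05% to 1.24% of all regions of 50 to 80 bases.
D4Z4 position 2, chr4:190086867-190086922: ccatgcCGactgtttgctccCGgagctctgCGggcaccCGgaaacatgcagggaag
D4Z4 position 3, chr4:190077325-190077398: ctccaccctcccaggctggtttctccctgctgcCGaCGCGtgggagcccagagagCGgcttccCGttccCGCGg
D4Z4 position 6, chr4:190068033-190068109: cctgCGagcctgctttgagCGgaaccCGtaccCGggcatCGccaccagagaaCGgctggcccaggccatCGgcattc

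The next 6 lie outside D4Z4 and are shown because they held many reads, differed in direction between places, or, for the chromosome 10 counterpart, held none although the letters are the same. Capitals mark the EcoRI site, whose letters were present in 44.6% to 47.7% of all regions of a library.
Before the array, most reads, chr4:189998269-189998398: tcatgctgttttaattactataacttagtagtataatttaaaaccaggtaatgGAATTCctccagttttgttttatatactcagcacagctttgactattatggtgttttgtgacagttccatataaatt
Before the array, higher after hemin, chr4:190041638-190041717: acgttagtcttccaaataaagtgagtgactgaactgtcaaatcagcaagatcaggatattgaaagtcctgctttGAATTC
Its chromosome 10 counterpart, chr10:133641128-133641206: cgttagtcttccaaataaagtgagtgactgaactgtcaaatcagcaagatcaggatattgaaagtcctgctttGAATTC
At both ends, without reads after hemin, chr4:190044575-190044749: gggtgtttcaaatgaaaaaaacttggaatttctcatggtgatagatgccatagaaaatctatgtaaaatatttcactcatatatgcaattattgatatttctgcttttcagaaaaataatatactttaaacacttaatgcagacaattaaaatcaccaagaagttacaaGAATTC
After the units, found at 1 place, chr4:190111354-190111519: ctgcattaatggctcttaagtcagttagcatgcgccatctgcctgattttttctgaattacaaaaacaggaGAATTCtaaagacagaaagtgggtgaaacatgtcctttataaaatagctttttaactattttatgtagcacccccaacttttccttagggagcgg
After the units, also at the start of chromosome 4, chr4:190114698-190114936: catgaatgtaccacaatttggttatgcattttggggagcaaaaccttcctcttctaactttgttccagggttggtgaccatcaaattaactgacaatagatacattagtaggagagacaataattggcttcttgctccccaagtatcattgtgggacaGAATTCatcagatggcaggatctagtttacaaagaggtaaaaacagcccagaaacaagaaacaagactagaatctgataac

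The last one is the most contacted place of the 68-base repeat of chromosome 10, which lies 3904 bases from the nearest EcoRI site. Capitals mark 24 bases that recur after 68 bases and were present, on either strand, in 0.0382% to 0.0637% of all regions.
68-base repeat, chr10:133690298-133690415: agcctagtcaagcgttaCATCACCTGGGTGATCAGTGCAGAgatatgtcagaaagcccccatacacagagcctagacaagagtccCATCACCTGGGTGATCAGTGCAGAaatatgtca

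The contacts of both ends fell upon differentiation. The chromosome 4 end held 32269 reads in untreated replicate 1 and 30892 in untreated replicate 2, against 11057 and 11365 after hemin. For the chromosome 10 end, the numbers were 17839 and 17551 before and 4839 and 5426 after treatment. The libraries differed in depth, with 31721628 and 34000240 reads in the untreated and 19548906 and 20577487 in the hemin libraries, of which 50.5% to 53.2% lay at the viewpoint. As a share of the reads outside the viewpoint, the chromosome 4 end took 0.206% and 0.184% in untreated cells and 0.121% and 0.117% after hemin, and the chromosome 10 end took 0.114% and 0.105% and then 0.0528% and 0.0559%. Neither share overlapped between the groups. The two-sided exact permutation test gave p = 0.333 for both, the smallest value that 2 libraries against 2 allow.

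After scaling by the size factors of DESeq2, the chromosome 4 end had 25318 ± 1587 (SD, n = 2) normalized reads in untreated and 13685 ± 457 in hemin libraries, a log2 fold change of -0.89 (SE 0.066). The chromosome 10 end had 14182 ± 615 and 6255 ± 176, a log2 fold change of -1.18 (SE 0.055). The Wald test of DESeq2, adjusted over all bins and windows of the genome, gave adjusted p = 4.2e-40 and 5.2e-102, and the quasi-likelihood test of edgeR gave adjusted p = 0.0014 and 0.0012. A change was frequent in these data: of all 100 kb bins, 33.0% were lower and 40.3% were higher after hemin with DESeq2 (73.3% in all), and 27.1% and 32.4% with edgeR (59.5%). The median bin moved by 0.51 on the log2 scale under this scaling, so both ends lay further below the median bin than below 0. In bulk cells, fewer cells with a contact and fewer contacts per cell cannot be told apart. When a region was counted as 1 however many reads it held, neither fall passed the threshold (-0.32 and -0.75).

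The 2 ends were among the most contacted ends of all chromosomes. Of 43 chromosome ends with known sequence, the chromosome 4 end ranked 2, 3, 2 and 2 in the order of untreated and hemin replicates, and the chromosome 10 end ranked 4 in each library. The start of chromosome 4 ranked 1, 1, 3 and 3, and the start of chromosome 18 ranked 3, 2, 1 and 1. At the start of chromosome 4, mean normalized reads were 27027 in untreated and 10394 in hemin libraries. Neither a high rank nor a fall was thus particular to the D4Z4 ends. Reads with copies elsewhere were ranked where they were put. The chromosome 4 end held 1.81 and 1.76 times the reads of the chromosome 10 end in untreated cells and 2.28 and 2.09 times after hemin. On the log2 scale this ratio was 0.84 ± 0.028 (SD, n = 2) and then 1.13 ± 0.089, without overlap between the groups (two-sided exact permutation test, p = 0.333, the smallest possible). Among regions within 100 bases of an EcoRI site the difference of this ratio was 0.12 rather than 0.29, and the groups overlapped.

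**Figure D1:**
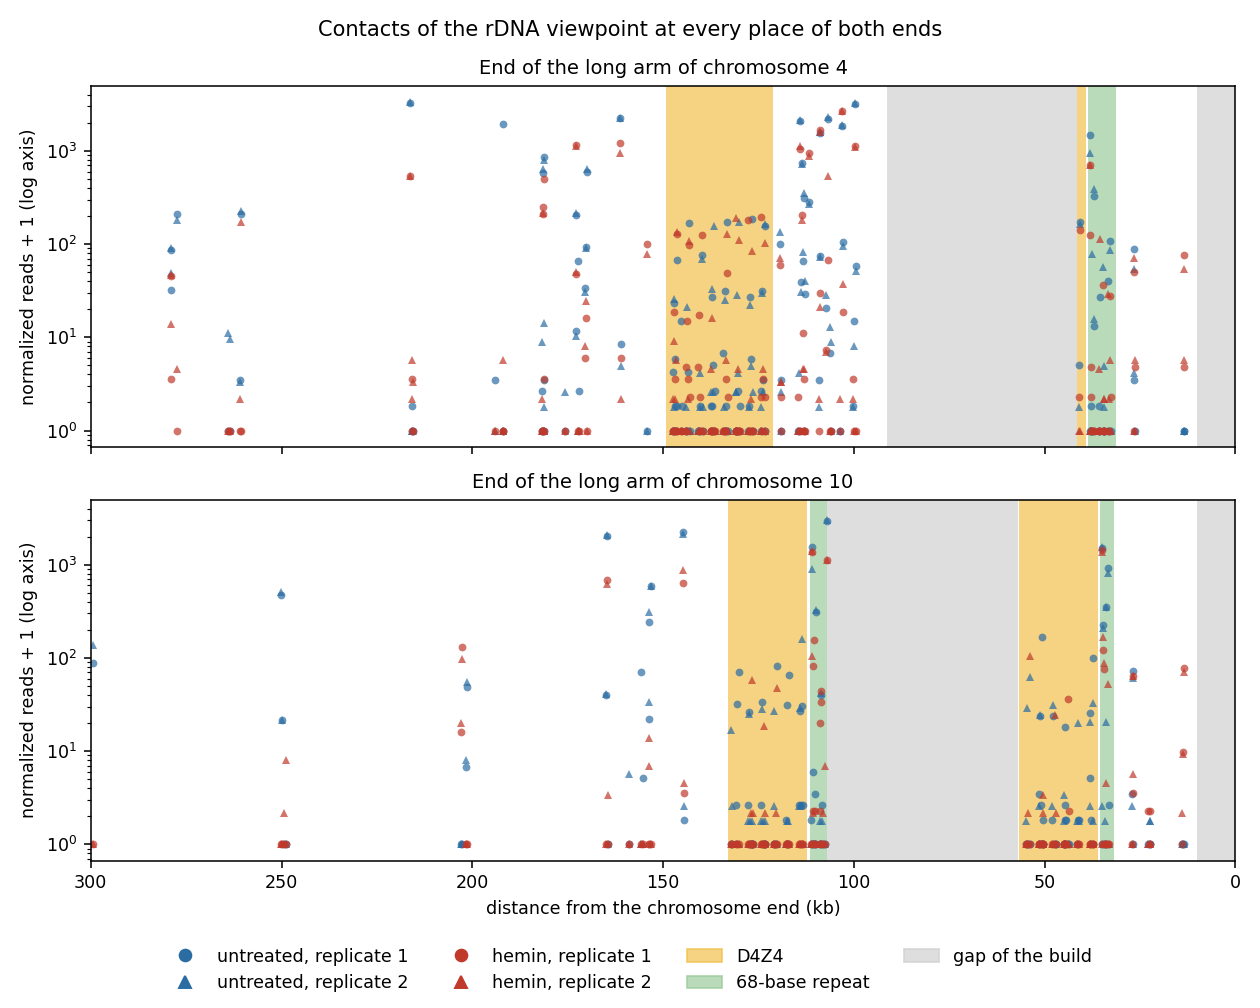
Normalized reads plus 1 (log axis) of every contact place of both ends against the distance from the chromosome end in kb, with untreated libraries in blue, hemin libraries in red, D4Z4 in orange, the 68-base repeat in green and gaps of the build in grey. The highest points of each library lay outside D4Z4, before and after the units.

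The fall was unequal along the chromosome 4 end, which was divided at 190060000 and 190190000 into a flank, the window of the DUX4 repeat array, and a short tip. In the flank the counts were 12707 and 10931 in untreated and 3148 and 2690 in hemin libraries, a log2 fold change of -1.41 (adjusted p = 5.3e-15 with DESeq2 and 0.0061 with edgeR, SE 0.18). In the array window they were 19562 and 19961 against 7846 and 8626, a log2 fold change of -0.66 (adjusted p = 5.2e-102 and 0.0014, SE 0.030). The tip had no read in untreated cells and 63 and 49 reads after hemin. The hemin libraries were below both untreated libraries in the flank and in the array window, and above them in the tip.

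The array window was, however, mostly not D4Z4. The stretch between the last unit and the gap (chr4:190093264-190123121) held 15552 and 16706 reads in untreated cells and 6234 and 7009 after hemin, which was 48.2% to 61.7% of the reads of the whole end, and its log2 fold change was -0.68 (adjusted p = 1.3e-62 with DESeq2 and 0.002 with edgeR, SE 0.040). The D4Z4 sequence of chromosome 4 held 1448 and 1181 reads before and 778 and 766 reads after treatment, between 3.8% and 7.0% of the end. Its normalized reads were 1056 ± 185 (SD, n = 2) and 943 ± 60, which differed by less than the spread of the untreated replicates (log2 fold change -0.16, SE 0.19, adjusted p = 0.423). With the window limited to the 8 whole units the log2 fold change was -0.02 (adjusted p = 0.927).

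On chromosome 10 the D4Z4 sequence held 939 and 660 reads in untreated cells and 29 and 221 after hemin. The groups did not overlap, but hemin replicate 1 held far fewer reads than replicate 2, and the log2 fold change of -2.12 (SE 0.98) passed with DESeq2 (adjusted p = 0.043) and not with edgeR (0.21). Without either untreated replicate it did not pass (adjusted p = 0.203 without replicate 1, 0.081 without replicate 2). Since the sequences of the units recur on both chromosomes, the sum over both arrays was also taken. It was 2387 and 1841 before and 807 and 987 after hemin, a log2 fold change of -0.64 (adjusted p = 0.0046 with DESeq2 and 0.059 with edgeR, SE 0.22). Without hemin replicate 1 the log2 fold change was -0.33, and without hemin replicate 2 it was -0.53. With DESeq2 it was -0.62 with the replicate block (adjusted p = 0.118) and -0.46 scaled by reads outside the viewpoint (0.060). In regions found in both replicates of a group it was -1.35 (adjusted p = 2.0e-23), and in repeat-filtered regions -1.28 (1.6e-19). Either choice kept 29.4% to 63.3% of the D4Z4 reads. With regions counted once it was -1.23 (0.038, and 0.090 with edgeR).

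The other segments of both ends had clearer differences. The stretch before the array of chromosome 10 held 7210 and 7550 reads in untreated cells and 1157 and 1405 after hemin (log2 fold change -1.92, SE 0.081), and the corresponding stretch of chromosome 4 held 12707 and 10931 and then 3226 and 2755 (-1.37, SE 0.18). The 68-base repeat of chromosome 10 held 9599 and 9261 reads before and 3531 and 3675 after (-0.78, SE 0.067), and that of chromosome 4 held 2453 and 2003 and then 714 and 722 (-1.03, SE 0.18). All 4 segments were lower in both hemin libraries and passed with both tests. None of the reads of the chromosome 10 repeat came from a sequence found at 1 place, and at most 2.5% of those of the chromosome 4 repeat did. Exact copies outside both ends were present for 49.0% to 66.0% of the chromosome 10 repeat reads. For the chromosome 4 repeat it was 8.7% to 99.4%. The division of repeat reads between the ends is thus a value of where the reads were put. For the 68-base repeat of chromosome 10 the fall rested on places far from EcoRI sites: with regions within 100 bases of one, the log2 fold change was 0.02.

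Beyond the 68-base repeat, the summed reads of the most distal known sequence went the other way. On chromosome 10 it held 91 and 80 reads in untreated and 122 and 125 reads in hemin libraries, a log2 fold change of 1.14 (adjusted p = 5.4e-06 with DESeq2 and 0.015 with edgeR, SE 0.24), which did not pass without untreated replicate 2 (adjusted p = 0.151) or with the replicate number as a block (adjusted p = 0.579). On chromosome 4 it held 109 and 71 and then 105 and 113 reads, which passed with DESeq2 (log2 fold change 0.88, adjusted p = 0.029) and not with edgeR (0.127). Most added reads lay at 1 pair of matching places without untreated reads. These were chr10:133783745-133783909, with 61 and 59 hemin reads, and chr4:190201045-190201121, with 60 and 45. The places chr10:133770424-133770575 (log2 fold change -0.05) and chr4:190187903-190188052 (-0.21) did not rise. All reads at the distal end of chromosome 10 lay in sequence with further exact copies, and those with a copy on an acrocentric chromosome, the kind that carries the rDNA itself, made up 100% of the reads in 3 libraries and 52.8% in hemin replicate 2. Their part in the result was not tested.

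**Figure D2:**
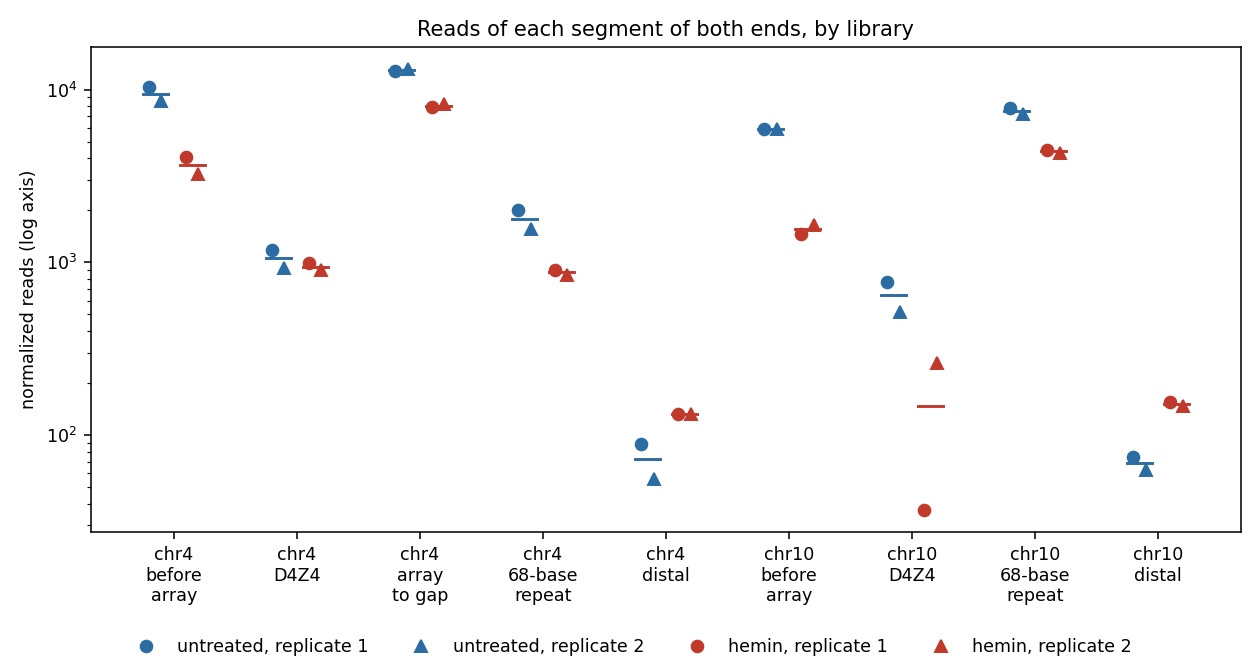
Normalized reads (log axis) of each segment of both ends in the 4 libraries, with a bar at the mean of each group of 2. The groups were apart in the segments before the array, between the units and the gap, and in the 68-base repeat, with hemin lower, while in the D4Z4 sequence of chromosome 4 they nearly met.

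Within the D4Z4 unit, the reads were aligned to the first unit of chromosome 4, and the reads of all copies of both ends were added. They fell on 9 positions, of which position 6 (bases 1891 to 2040) held the most. This position lies inside the reading frame of DUX4, which the annotation places at bases 1795 to 3069 of the first unit (DUX4L8). It held 1833 and 1240 reads in untreated cells and 452 and 778 after hemin. The hemin libraries were lower, but the difference (-0.73 on the log2 scale, SE 0.38) did not pass (adjusted p = 0.072 with DESeq2, 0.181 with edgeR).

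Ahead of the DUX4 reading frame, neighbouring positions went in opposite directions. Position 3 (bases 1027 to 1434) held 482 and 546 untreated reads, spread over 30 and 36 regions, and 45 and 24 reads in 6 and 4 regions after hemin. Its log2 fold change was -3.28 (adjusted p = 1.2e-14 with DESeq2 and 0.0073 with edgeR, SE 0.42). Position 2 (bases 962 to 1017), which ends just before position 3 and begins beside a FaeI site, held 7 and 3 reads in untreated cells and 296 and 160 after hemin, a log2 fold change of 6.13 (adjusted p = 6.6e-16 and 0.0074, SE 0.74). In neither position did the groups overlap.

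The reads of position 2 came from few regions. Both hemin libraries had them at the same bases of the unit but in different copies: hemin replicate 1 held 142 reads at chr4:190086867-190086922 and 154 at chr4:190090164-190090219, and hemin replicate 2 held 160 at chr4:190083571-190083626. The sequence of each has 8 exact copies in the genome. With each region counted once, position 2 gave no difference (log2 fold change 0.02 with edgeR), whereas position 3 was lower (-2.72, adjusted p = 0.0075 with DESeq2, and -2.67, adjusted p = 0.090 with edgeR). The sequence printed above for position 3 has 21 exact copies, so the regions counted once there also reflect where reads were put. The number of distinct contacts behind the reads of either position is thus not known.

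**Figure D3:**
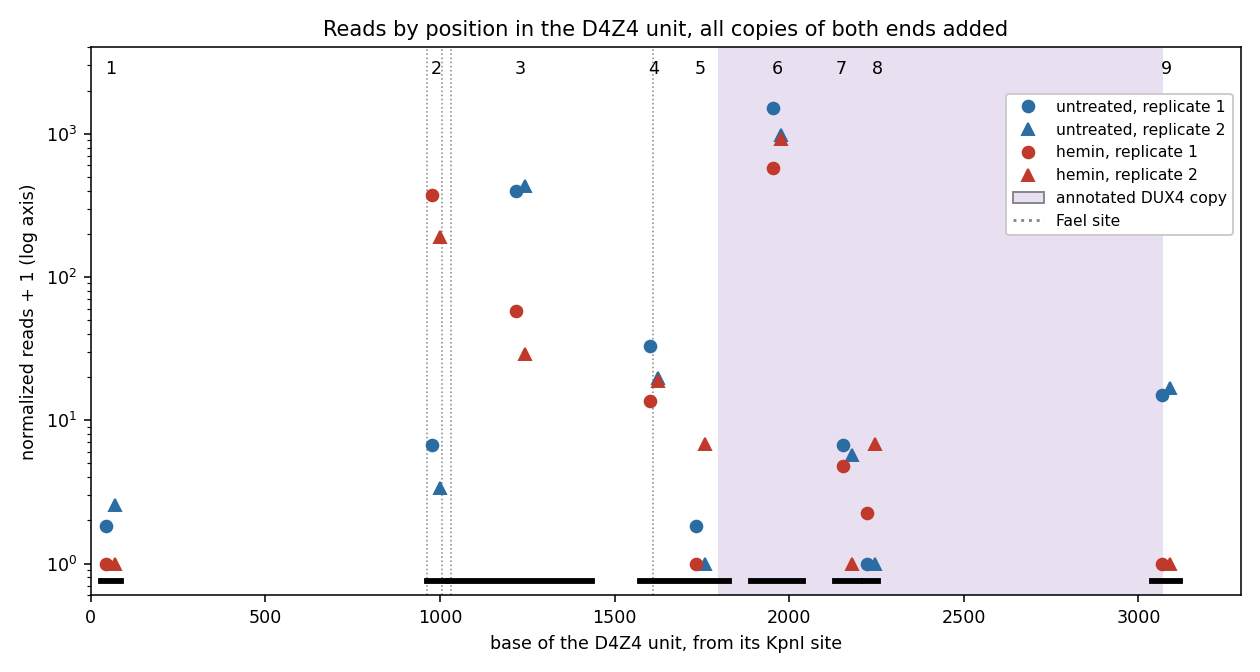
Normalized reads plus 1 (log axis) at the 9 positions of the D4Z4 unit, all copies of both ends added, for the 4 libraries; black bars at the base show the bases covered, dotted lines the FaeI sites and the shaded band the annotated DUX4 reading frame. Hemin libraries were above untreated libraries at position 2 and below them at position 3, and position 6 held the most reads in each library.

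The same exchange of copies was seen throughout the array. The annotated DUX4 copies of chromosome 4 often had reads in 1 replicate and none in the other, such as DUX4L8 with 99 and 0 reads in untreated cells and 100 and 113 after hemin, DUX4L5 with 2 and 196 and then 0 and 0, and DUX4L3 with 224 and 2 and then 0 and 71. Among D4Z4 places with at least 20 reads in an untreated replicate, 19 of 36 (52.8%) had no read in the other, against 12.8% of all places. After hemin it was 13 of 16 (81.3%), against 17.2% of all places. For the rest of both ends the shares were 8 of 59 (13.6%) and 13 of 45 (28.9%). The most contacted D4Z4 places have 22 to 24 exact copies, and none of the reads of D4Z4 came from a sequence found at 1 place, so a value for a single copy is a value of where the reads were put.

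Most reads annotated to the DUX4 gene itself (ENSG00000260596, spanning chr4:190173774-190185942, plus strand) were not in its reading frame either. The span covers a D4Z4 stretch and the whole 68-base repeat. Regions inside it held 2661 and 2213 reads in untreated and 824 and 722 in hemin libraries, and the 68-base repeat alone held 2453 and 2003 and then 714 and 722. Reads assigned to DUX4 gave a log2 fold change of -1.01 (adjusted p = 3.2e-07 with DESeq2 and 0.010 with edgeR, SE 0.19).

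Both ends were then resolved into 260 contact places, each the union of overlapping regions of the 4 libraries, of which 131 had at least 10 reads and were tested (75 on chromosome 4, 56 on chromosome 10). With DESeq2, 53 were lower after hemin (40.5%) and 14 were higher (10.7%), and with edgeR 48 were lower and 11 higher. Over all 63848 places tested, 35.4% were lower and 37.6% were higher with DESeq2 (73.0% in all), and 34.7% and 35.1% with edgeR (69.8%). The share of lower places was thus near that of all places, and the share of higher ones was below it. The median log2 fold change was -1.93, against -0.34 over all places. Of the tested places, 50 had no read in either hemin library (38.2%, against 43.3% of all places) and 21 had none in either untreated library (16%, against 44.1%). Reads in all 4 libraries were found at 34 (26.0%), against 7.3% of all places.

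The segments differed in these counts. Between the units and the gap, 15 of 19 places were lower and 2 higher, and before the array 10 of 22 were lower on chromosome 4 and 9 of 14 on chromosome 10, with 3 and 2 higher. In D4Z4, 11 of 47 places of both ends were lower and 3 higher with DESeq2, and 10 were lower and 0 higher with edgeR. The 3 higher ones are the copies of position 2 with reads in a single hemin library each.

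The place with the most reads before the array, chr4:189998269-189998398, lies 216 kb from the chromosome end in no annotated gene. It held 3985 and 4243 reads in untreated cells and 429 and 460 after hemin, a log2 fold change of -2.60 (SE 0.065, 6.08-fold lower). Its regions have 1 to 3 exact copies. In untreated replicate 2, 39.0% of the reads before the chromosome 4 array had a copy on an acrocentric chromosome, against at most 0.248% in the other libraries. The part of these copies in the fall was not tested. Nearer to the array, chr4:190053271-190053484 held 2728 and 2857 reads before and 959 and 801 after (-1.05, SE 0.16). The hemin libraries were below the untreated libraries at both places.

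The flank also held a place of 1 library alone: chr4:190022684-190022762 had 2343 reads in untreated replicate 1 and 0 in the other 3 libraries, 815 bases from the nearest EcoRI site. Without this place, an alternative chosen after its values were seen, the flank had a log2 fold change of -1.25 and the whole chromosome 4 end -0.83.

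In contrast, chr4:190041638-190041717 in the pseudogene AGGF1P1 rose, with 248 and 277 reads in untreated cells and 909 and 968 after hemin (log2 fold change 2.45, SE 0.096, 5.45-fold higher, adjusted p = 5.6e-141 with DESeq2 and 5.9e-04 with edgeR). Its sequence is printed above beside that of chromosome 10, which holds the same letters but had 0 reads in each library. Places found in hemin libraries alone lay at chr4:190060342-190060408 in the pseudogene CLUHP4, with 78 and 65 reads, at chr4:190201045-190201121 with 60 and 45, at chr10:133594698-133594776 with 102 and 83, and at chr10:133783745-133783909 with 61 and 59. Against a floor of 3 reads per library, these were at least 36.4-, 26.8-, 47.2- and 30.5-fold higher. The sequences of the places in AGGF1P1 and CLUHP4 have 2 exact copies each, so their reads cannot be tied to 1 copy. The places chr4:190201045-190201121 and chr10:133783745-133783909 are counterparts of 99.6% to 99.7% identity, and regions of the latter have 2 to 8 exact copies. In each library, 100% of the distal chromosome 4 reads had an exact copy on an acrocentric chromosome. These 2 places are thus not separate gains.

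Other places were left without reads. The sequence chr4:190044575-190044749 held 724 and 811 untreated reads and none after hemin, at least 168-fold lower, and the same letters on chromosome 10 lay at a place (chr10:133644092-133644233) with 722 and 745 untreated reads and none after hemin, at least 160-fold lower. In the 68-base repeat, chr4:190177516-190177572 within DUX4 held 396 and 493 reads before and 0 after hemin, at least 97.0-fold lower. In CYP2E1, a cytochrome P450 gene whose product oxidises ethanol, chr10:133547331-133547457 held 577 and 647 reads and then 0, at least 134-fold lower. All 4 passed with both tests. The first 2 share a sequence with 2 exact copies, and the sequence of the place within DUX4 has 3. The reads of these places cannot be tied to 1 copy.

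The 5 places of the array window with the highest mean normalized reads all lay between the units and the gap, and they differed from one another. The largest, chr4:190111354-190111519, has a sequence found at 1 place of the genome and held 2276 and 2414 reads in untreated cells and 2132 and 2264 after hemin. Its log2 fold change of 0.51 (SE 0.046) passed with both tests. It was the same as the move of the median 100 kb bin but lay above the median of all places (-0.34). At chr4:190105685-190105791 the reads were 1911 and 2039 and then 1327 and 1351 (log2 fold change 0.05, adjusted p = 0.463; -0.06 with edgeR). The others were lower: chr4:190114698-190114936 with 3922 and 4128 and then 892 and 933 (-1.53, SE 0.052), chr4:190100376-190100662 with 2538 and 2746 and then 820 and 969 (-0.96, SE 0.077), and chr4:190107688-190107886 with 2663 and 2939 and then 53 and 462. The last of these passed with DESeq2 (-2.88, SE 1.25, adjusted p = 0.031) and not with edgeR (0.119), its hemin replicates being far apart. A smaller place, chr4:190102710-190102867, rose from 346 and 344 to 746 and 752 reads (1.73, SE 0.10, adjusted p = 1.1e-62 with DESeq2 and 5.9e-04 with edgeR).

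The most contacted place of chromosome 10 was in the 68-base repeat, and the next 4 were divided between this repeat and the stretch before the array. At the first, chr10:133690298-133690415 the reads were 3583 and 3881 in untreated and 881 and 962 in hemin libraries (log2 fold change -1.41, SE 0.057). At chr10:133686247-133686386 they were 1885 and 1140 and then 1085 and 1195 (0.19, adjusted p = 0.553), so that the groups overlapped after scaling. At chr10:133762436-133762575 they were 1855 and 1996 and then 1146 and 1160 (-0.13, adjusted p = 0.065 with DESeq2; -0.24 and 0.0097 with edgeR). Both of the latter lie at EcoRI sites and the first does not. Before the array, chr10:133652619-133652831 held 2744 and 2747 reads and then 496 and 753 (-1.54, SE 0.20), and chr10:133632492-133632789 held 2510 and 2632 and then 545 and 525 (-1.66, SE 0.081).

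Homologous sequence was then compared place by place. Before the chromosome 4 array, 12 places with at least 10 reads had a chromosome 10 counterpart of at least 98% identity (98.3% to 99.6%), and 9 of these counterparts had reads. Summed, the chromosome 4 places held 4667 and 4949 reads in untreated cells and 2169 and 2084 after hemin, and their counterparts held 6431 and 6617 and then 1043 and 1299. The chromosome 10 side was higher in both untreated and lower in both hemin libraries, but the order after hemin rested on the place chr4:190041638-190041717, whose sequence has 2 exact copies and which made up 909 and 968 of the hemin reads on the chromosome 4 side. Without it the hemin reads were 1260 and 1116 on chromosome 4 against 1043 and 1299 on chromosome 10, with opposite orders in the replicates. At the place near the array, the counterparts (chr4:190053271-190053484 and chr10:133652619-133652831) had nearly equal reads in untreated cells, 2728 against 2744 in replicate 1 and 2857 against 2747 in replicate 2, and after hemin 959 against 496 and 801 against 753.

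The stretch after the chromosome 4 units is also related to the start of the short arm of the same chromosome, which covered 78.8% of it in blocks of 98.1% to 99.6% identity. Of the 19 tested places there, 13 had a counterpart at the start of chromosome 4, and 8 of those were identical. Joined into 12 groups, they held 10448 and 11165 reads in untreated cells and 4024 and 4237 after hemin, and the counterparts 10769 and 11220 and then 4764 and 5109. The reads of most matching places were close: at chr4:190105685-190105791 they were 1911, 2039, 1327 and 1351, with 1887, 2032, 1347 and 1303 at the counterpart, and at chr4:190102710-190102867 they were 346, 344, 746 and 752, with 275, 335, 711 and 753. An exception was chr4:190095051-190095130, with 120 and 173 reads in untreated cells and 46 and 60 after hemin, whose counterpart rose from 142 and 139 to 546 and 637. Others included chr4:190100964-190101137, with 894, 923, 162 and 152 reads against 1463, 1547, 479 and 550 at the counterpart. At chr4:190105506-190105632 the reads were 89, 92, 23 and 17 against 40, 12, 7 and 16. Where the sequences are identical, a read carries nothing that tells the ends apart, and the counts of both sides are then a division of the same reads.

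**Figure D4:**
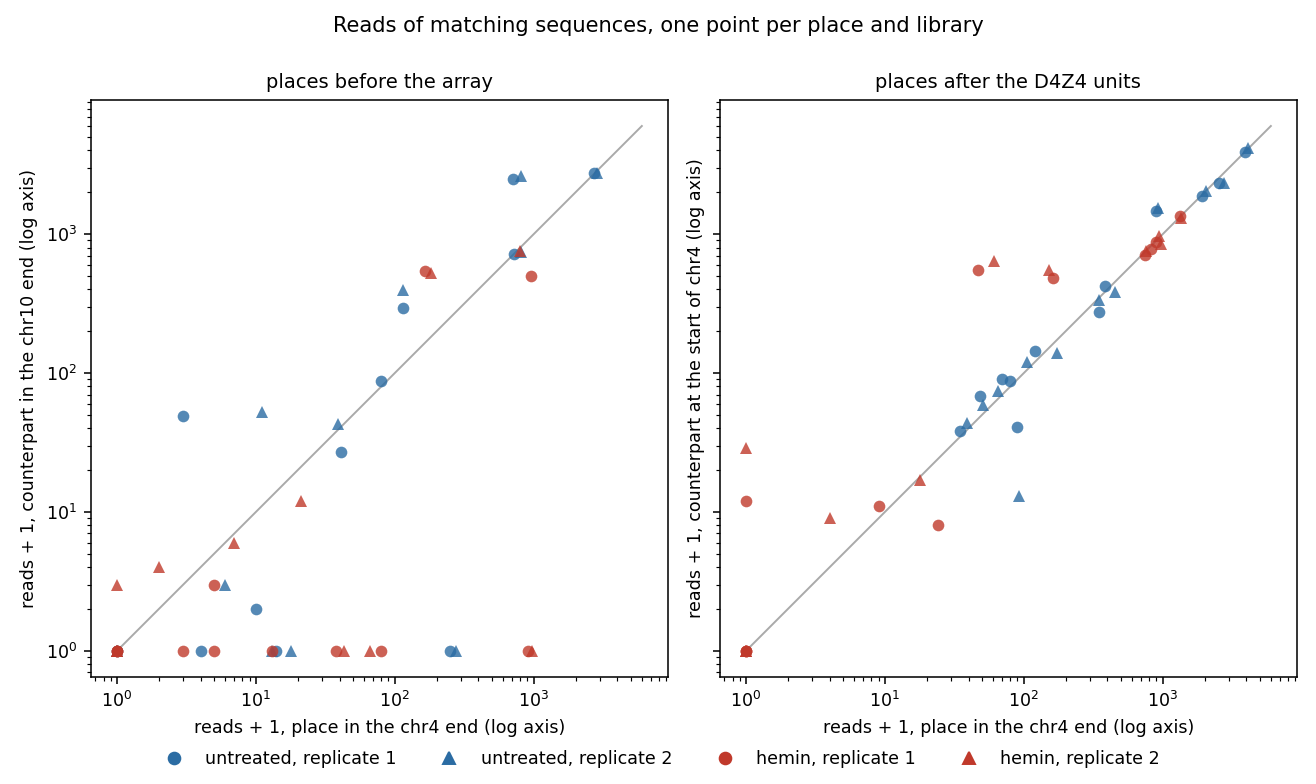
Reads plus 1 (log axes) of chromosome 4 places before the array against their counterparts in the chromosome 10 end (left), and of places after the units against their counterparts at the start of chromosome 4 (right), in the 4 libraries, with the line of equal reads. Most points on the right lay close to the line, with some untreated and hemin points above or below it. Points on the left spread more widely, with chromosome 4 places of up to 968 reads whose counterpart had none.

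Reads of sequences found at 1 place of the genome were also taken alone. They made up 55.7% and 39.6% of the untreated and 34.9% and 36.4% of the hemin reads of the chromosome 4 end, and 35.3% and 37.1% and then 19.5% and 15.4% of those of the chromosome 10 end. With these, the log2 fold change was -1.32 (adjusted p = 3.1e-08 with DESeq2 and 0.021 with edgeR, SE 0.23) for chromosome 4 and -2.24 (adjusted p = 6.9e-69 and 0.0012, SE 0.13) for chromosome 10. These reads are, however, not from the same places in each library, since regions of a place differ in length and with it in their copies. In the flank they were 9454 and 3044 in the untreated libraries. Of those of replicate 1, 2343 came from the place of that library, and 3985 came from chr4:189998269-189998398, whose 4243 reads in replicate 2 were left out because the region there has further copies. The log2 fold change of the flank (-1.50) passed with DESeq2 (adjusted p = 0.016) and not with edgeR (0.155).

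Places at which no region of any library has a second copy were therefore added up as an alternative chosen after seeing the data. On chromosome 4, 11 such places held 7440 and 5545 reads in untreated cells and 2400 and 2763 after hemin (log2 fold change -0.73, SE 0.20, adjusted p = 5.1e-04 with DESeq2 and 0.048 with edgeR). Without the place of 1 library they held 5097 and 5545 and then the same hemin reads (-0.44, SE 0.062, adjusted p = 5.7e-12 and 0.0084), a smaller fall than that of the whole end. On chromosome 10, 12 places held 1048 and 1305 and then 114 and 119 reads (-2.73, SE 0.19, adjusted p = 3.4e-47 and 0.0012). The hemin libraries were below the untreated libraries at both ends. In the flank of chromosome 4 only 12 reads of untreated replicate 2 and 1 of hemin replicate 2 lay at such places, and the flank could not be compared in this way.

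The authors also deposited regions found in both replicates of a group after removal of reads made wholly of repeats, with the mean read count as signal. The chromosome 4 end had 41 such rows in untreated and 29 in hemin cells, with summed signals of 15112 and 5652, and the chromosome 10 end had 25 and 6, with 7930 and 650. These rows have no replicates of their own. Of the untreated rows, 18 of 41 (43.9%) on chromosome 4 and 3 of 25 (12%) on chromosome 10 overlapped a hemin row. Of the hemin rows, 18 of 29 (62.1%) and 4 of 6 (66.7%) overlapped an untreated row. D4Z4 was represented by 16 untreated rows at each end, by 8 hemin rows on chromosome 4 and by 0 on chromosome 10. The 68-base repeat, which held 52.8% to 73.0% of the reads of the chromosome 10 end, had 0 rows.

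Apart from DUX4 and its copies, 4 of 7 genes examined at the ends had reads inside them. FRG1, an early candidate gene of the dystrophy, held 260 and 318 reads in untreated cells and 0 and 146 after hemin, and with hemin replicates this far apart the difference did not pass (adjusted p = 0.656). FRG2 and FRG2B, a gene pair in the homologous stretch before each array, held none, as did SYCE1, a component of the synaptonemal complex. CYP2E1 held 602 and 673 reads before and 0 and 7 after hemin (log2 fold change -6.90, SE 0.58, adjusted p = 4.1e-32 with DESeq2 and 0.020 with edgeR). Its neighbour SCART1, a scavenger receptor gene, was assigned 302 and 362 reads before and 0 after. Of all genes tested, 33.0% were lower and 39.2% higher with DESeq2 (72.2% in all), and 27.9% and 32.2% with edgeR (60.0%). DBET, the long non-coding RNA known to arise next to the first unit, held 38 and 33 and then 16 and 13 reads inside it.

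Genes elsewhere in the genome that act on D4Z4 or respond to DUX4 were read from the same contacts. Of 17 genes of proteins known to bind or silence D4Z4, 8 had reads and 6 were tested. EZH2, the methyltransferase of Polycomb complex PRC2, had 0 and 0 untreated and 265 and 308 hemin reads. YY1, a DNA-binding protein known to bind D4Z4, had 0 and 0 and then 80 and 59, and NCL, the nucleolar protein nucleolin, had 0 and 0 and then 66 and 82. These 3 were higher after hemin with both tests. MORC2, a partner of the HUSH silencing complex, fell from 613 and 552 reads to 0, and SUZ12, another PRC2 subunit, held 248 and 288 and then 13 and 0, lower with DESeq2 (adjusted p = 0.0031) and not with edgeR (0.105). Of the 6 tested, 3 were thus higher and 2 lower with DESeq2, where 39.2% and 33.0% of all genes were. Such calls were usual in these data, and 6 genes are too few to set against these shares. Of all places tested, 44.1% had no untreated read.

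Of 24 genes known to be switched on by DUX4, 23 were annotated and 4 had reads. TRIM49 had 0 and 0 untreated and 2589 and 2816 hemin reads, LEUTX, an embryonic homeobox gene, had 0 and 0 and then 233 and 248, and TRIM43 had 0 and 0 and then 105 and 160. PRAMEF2 held 296 and 346 reads before and 0 after. The first 3 were higher and PRAMEF2 was lower with both tests. Of all genes tested, 72.2% were called with DESeq2 and 60.0% with edgeR, and 4 genes are too few to set against these shares. TRIM49, TRIM43 and PRAMEF2 belong to families of near-identical copies, so that their reads may come from other copies. These are contacts of rDNA with the genes and say nothing of their expression.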

How the data were processed

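Per the labels and the study's methods, 4C libraries of the rDNA viewpoint were made from 2 replicates each of untreated and hemin-treated K562 cells, with EcoRI as the first and FaeI as the second enzyme. The submitters' processing notes name cutadapt 3.5, BWA 0.7.17-r1188, SAMtools 1.14, bedtools 2.29.1 and hg38. The deposited counts give reads per contact region, with mates counted singly and no normalization. Removal of PCR duplicates and a filter on mapping quality are not given in the sources used here. The deposited signal of repeat-filtered regions gives 1 value per group. Columns without a sample numbered 0.

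Members and lists were chosen with earlier results of these data known. Regions were summed by midpoint into 100 kb bins and windows, into places (overlapping regions of any library) and into genes (GENCODE release 44, regions widened by 2500 bases and assigned where exactly 1 gene was met). The groups were compared in R 4.3.3 with DESeq2 1.42.0 (Wald test, local fit of the dispersions, no term besides treatment), and calls were made at an adjusted p under 0.05 (Benjamini-Hochberg). Bins, places and genes shared the size factors of the bins, and edgeR 4.0.16 (quasi-likelihood, TMM) was given beside it. Copies of sequences in hg38 were found with blastn 2.17.0, and sequences are those of hg38. Python 3.11.15, numpy 2.4.6, pandas 2.3.3, pysam 0.24.0 and matplotlib 3.10.9 were used. Places named were the 5 with the highest mean normalized count in the flank, array window, tip and chromosome 10 end, the 5 highest and 5 lowest log2 fold changes among called places of at least 20 mean normalized reads, and those with repeat-filtered rows in both groups. Of these, those shown are the ones that differ most, and the rest stand in the counts.

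The fits were tested on simulated counts with 200 changed features. Over 20495 bins DESeq2 recovered 83.5% of them with 69.4% of its calls false, and edgeR recovered 61.5% with 16.3% false. Over 61963 places the values were 82.5% and 76.4% for DESeq2 and 69.0% and 38.1% for edgeR, and over 9342 genes 82.0% and 49.4% for DESeq2 and 65.5% and 9.66% for edgeR. The share of false calls depends on how many features change, and only 200 did in each simulated set. In the data, DESeq2 called 73.3% of bins, 73.0% of places and 72.2% of genes, so the simulated shares do not describe those calls. DESeq2 had the higher share of false calls in each set.

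Libraries held from 19548906 to 34000240 reads. Because amplified reads carry no molecular identifiers, they are not independent, and the floor of 3 reads per library covers counting error only. The study treats the replicates as biological. The p-values of DESeq2 and edgeR rest on dispersions estimated with all features from 2 libraries per group. Those of the permutation test could not fall below 0.333. All describe these samples only. Alternatives covered the test, scaling, filters on counts, repeats, recurrence and EcoRI sites, regions counted once, the replicate block, window limits, placement and each library left out.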

Additional observations from a re-analysis of the deposited data

How the results depend on the processing

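The falls of the chromosome 4 end, array window, flank and chromosome 10 end kept their direction under each alternative run and passed the threshold under all except those named here, apart from the flank at places without a second copy in any library (chosen after seeing the data), which gave -2.95 and did not pass, and 4.73 when the place of 1 library was also left out, from 12 reads or fewer in 3 of 4 libraries. For regions found at 1 place, the flank passed with DESeq2 and not with edgeR (adjusted p = 0.155). With each region counted once, the log2 fold changes were -0.32, -0.38, -0.33 and -0.75 with DESeq2 and, chosen after seeing the data, -0.30, -0.36, -0.31 and -0.73 with edgeR, and none passed. For the array window, limits at the first and last D4Z4 unit gave -0.021 and D4Z4 sequence only (chosen after seeing the data) gave -0.16. With 1 library left out at a time, the ranges were -1.20 to -0.66 (chromosome 4 end), -0.92 to -0.42 (array window), -1.79 to -1.05 (flank) and -1.47 to -0.93 (chromosome 10 end). The 67 called places of both ends became 28 with EcoRI regions only and between 39 (without untreated replicate 2) and 68 with a library left out, being 40 without untreated replicate 1. The 14744 called bins became 95 (DESeq2) and 664 (edgeR) with regions counted once and 23555 with 25 kb bins, and the 9 called list genes became 0 with both tools. Regions counted once leave few counts per feature. At single places there were at most 4 regions in a library, so that the 0 places called there say nothing of stability. Scaling moved the median of all bins to 0.41 (TMM), 0.62 (total reads) and 0.69 (reads outside the viewpoint), and no share of higher calls by over 10 percentage points except with regions counted once (23.2% against 55.0%).

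Same-numbered replicates did not deviate together (Pearson r = -0.00076 over 21765 bins), so the numbers were not taken as pairs. With the replicate block, the log2 fold changes were -0.89, -0.66, -1.41 and -1.18 in the order above, all past the threshold, called places numbered 18, and D4Z4 of both ends had adjusted p = 0.118 and the distal chromosome 10 sequence 0.579.

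Some values changed sign. The 68-base repeat of both ends was 0.030 (DESeq2) and 0.050 (edgeR) with regions counted once, and that of chromosome 10 was 0.093 and 0.11, and 0.021 with EcoRI regions only. The place chr10:133686247-133686386 ranged from -0.40 (without untreated replicate 2) to 0.43 (without hemin replicate 1). The place chr10:133762436-133762575 was 0.044 scaled by reads outside the viewpoint, 0.045 without hemin replicate 1 and 0.11 without hemin replicate 2. The place chr10:133770424-133770575, -0.05 as fitted, was 0.051 by total reads, 0.12 by reads outside the viewpoint, 0.17 and 0.14 without hemin replicates 1 and 2, -0.43 without untreated replicate 2 and 0.025 in repeat-filtered regions. The place chr4:190105685-190105791 was -0.061 with edgeR and with TMM, and -0.20, -0.18 and 0.29 without untreated replicates 1 and 2 and hemin replicate 2. The place chr4:190187903-190188052, -0.21 as fitted, was 0.24 without hemin replicate 1 and -0.78 without untreated replicate 2. DUX4L20, 0.02 as fitted, was -0.089 with edgeR and with TMM, -0.50 without untreated replicate 2, 0.26 without hemin replicate 2 and -0.14 in recurring regions. The cause was not tested.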
